A study of Mus musculus with 2 samples.

Results

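The sensors of microbial products described here were 10 genes, chosen by name: the Toll-like receptor genes Tlr1, Tlr2, Tlr4, Tlr7, Tlr9 and Tlr13, the co-receptor gene Cd14, the adaptor gene Myd88, the cytosolic sensor gene Nod2 and the lectin receptor gene Clec7a. The count tables held 32228 genes, and 9 of the 10 members were matched in them by gene identifier. Clec7a is not analysed here.

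Toll-like receptors are membrane proteins that bind conserved parts of microbes. TLR2 pairs with TLR1 or TLR6 on the cell surface to bind bacterial lipopeptides, and TLR4 binds lipopolysaccharide of Gram-negative bacteria, which CD14 hands over to it. TLR7, TLR9 and TLR13 act in endosomes, where they bind single-stranded RNA, unmethylated CpG DNA and a stretch of bacterial ribosomal RNA. Most of them signal through MYD88 to NF-kappaB and interferon regulatory factors. NOD2 binds muramyl dipeptide, a piece of peptidoglycan, in the cytosol. In the colon these sensors face the commensal bacteria that cross a damaged epithelium, which is the setting of colitis induced by dextran sulfate sodium (DSS), a polymer in drinking water that injures the gut lining.

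The data were 2 single-cell RNA libraries of live (7-AAD-negative) CD45+ leukocytes of the colonic lamina propria (LP), 1 from DSS-treated WT mice and 1 from DSS-treated mice with a knockout of Ring1a (Ring1aKO; Ring1AKO in the labels), which encodes a ubiquitin ligase of polycomb repressive complex 1. The labels give the strain C57BL/6 and an age of 8 to 10 weeks for both. The study describes the knockout as whole-body. It also reports other gut bacteria in Ring1aKO mice before DSS, and more severe colitis with DSS. Genotype, gut bacteria and severity could therefore not be told apart here. Each library pooled the cells of 5 mice, so with 1 library per genotype no difference could be tested. Values of both libraries are set side by side with exact 95% intervals, which cover counting error only and not the spread between mice.

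Barcodes with at least 500 unique molecular identifiers (UMIs, each 1 captured RNA molecule), at least 200 genes and less than 5% mitochondrial UMIs were kept. The libraries labelled WT and Ring1aKO kept 6262 and 8474 barcodes, with medians of 6109 and 4825 UMIs, and 15 barcode sequences were shared. Ring1, the gene of RING1A, had 829 and 824 UMIs, or 13.4 and 11.9 CPM (UMIs scaled to a total of 1e6). The sources used here do not say which part of the gene was deleted, and reads from the 3' end outside it would check nothing, so each library is called by its label. Values given in pairs are in the order WT, Ring1aKO. Cells were placed in classes by marker genes that held no member: monocyte-like (816 and 270 cells), C1q macrophage-like (237 and 262), neutrophil-like (241 and 275), cDC1-like (88 and 79), cDC2-like (69 and 60), mature DC-like (41 and 73), pDC-like (30 and 20), B-like (1211 and 3661) and plasma-like (736 and 808). T, NK and ILC-like cells (1837 and 1877) served as a lymphocyte reference. No member was among the 10 leading genes of any class. The leading genes fitted the names, with 1 exception, the neutrophil marker Il1r2 among those of the cDC2-like cells. From 2 (plasma-like) to 8 (B-like) of the 10 were markers that had placed the cells, so this fit does not check the names.

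The stretches upstream of 3 members are shown because the results set these genes beside each other: Tlr2 and Tlr1 encode the parts of 1 receptor but differed in their classes, whereas Tlr13 had levels across classes much like those of Tlr2. They are RefSeq promoter sequences on GRCm38, 5' to 3' on the gene's strand. Each was cut to end at the base before the gene's start in the GENCODE annotation, so the lengths differ. Bases after the cut were not searched. Tlr2 lay at chr3:83841768-83841858 on the minus strand (91 bases), Tlr13 at chrX:106143025-106143203 on the plus strand (179 bases) and Tlr1 at chr5:64933564-64933808 on the minus strand (245 bases). Capitals mark GAGGAA, the core letters bound by the myeloid factor PU.1, searched on both strands.
Tlr2: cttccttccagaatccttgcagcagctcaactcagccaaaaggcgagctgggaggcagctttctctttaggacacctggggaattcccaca
Tlr13: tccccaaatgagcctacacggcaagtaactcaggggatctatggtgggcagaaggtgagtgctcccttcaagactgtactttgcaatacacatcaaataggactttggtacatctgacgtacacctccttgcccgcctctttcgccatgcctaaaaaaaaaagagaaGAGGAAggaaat
Tlr1: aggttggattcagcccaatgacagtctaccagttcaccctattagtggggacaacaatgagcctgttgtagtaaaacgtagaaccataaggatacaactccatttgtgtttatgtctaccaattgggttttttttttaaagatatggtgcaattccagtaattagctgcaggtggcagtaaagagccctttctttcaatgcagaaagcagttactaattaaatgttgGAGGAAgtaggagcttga
The letters were found once in the Tlr13 window, 12 bases before its end, and once in the Tlr1 window, 18 bases before its end. Among 32851 mouse promoters, 17.1% held them in a window of the size used for Tlr13, 22.7% at the size for Tlr1 and 9.22% at the size for Tlr2. These windows were the first bases of each promoter, from its upstream end, and were not cut at a gene start. A match is a description of the letters and not of a bound site.

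Tlr2 was a gene of the 3 myeloid classes. Its level in monocyte-like cells was 439 CPM (95% interval 424 to 455) with the label WT and 525 CPM (494 to 557) with the label Ring1aKO. Neutrophil-like cells had 377 and 350 CPM, and C1q macrophage-like cells 277 and 309 CPM. These classes stood far above the dendritic and lymphoid cells in both libraries. In cDC2-like cells, the dendritic class nearest to them, Tlr2 was at 52.3 and 58.9 CPM. It had 7.19 and 8.96 CPM in cDC1-like cells and no UMI in pDC-like cells, which allows up to 9.46 and 15.1 CPM by a floor of 3 counts. Among these phagocytes the order monocyte, neutrophil, macrophage was the same in both libraries, with overlapping intervals of neutrophil-like and macrophage-like cells in the library labelled Ring1aKO alone.

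Tlr1, whose protein is a partner of TLR2, had another order. C1q macrophage-like cells were highest with 37.7 (28.3 to 49.3) and 47.6 CPM (36.7 to 60.8), and B-like cells came next with 20.4 and 23.4 CPM. Neutrophil-like cells were at 19.6 and 16.5 CPM, with intervals that overlapped those of the B-like cells. B-like cells, where Tlr2 had only 5.70 and 4.52 CPM, thus held Tlr1 but little Tlr2. Monocyte-like cells, the class highest for Tlr2, had 16.6 and 9.80 CPM of Tlr1. Plasma-like cells were at 1.18 and 1.08 CPM.

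**Figure D1:**
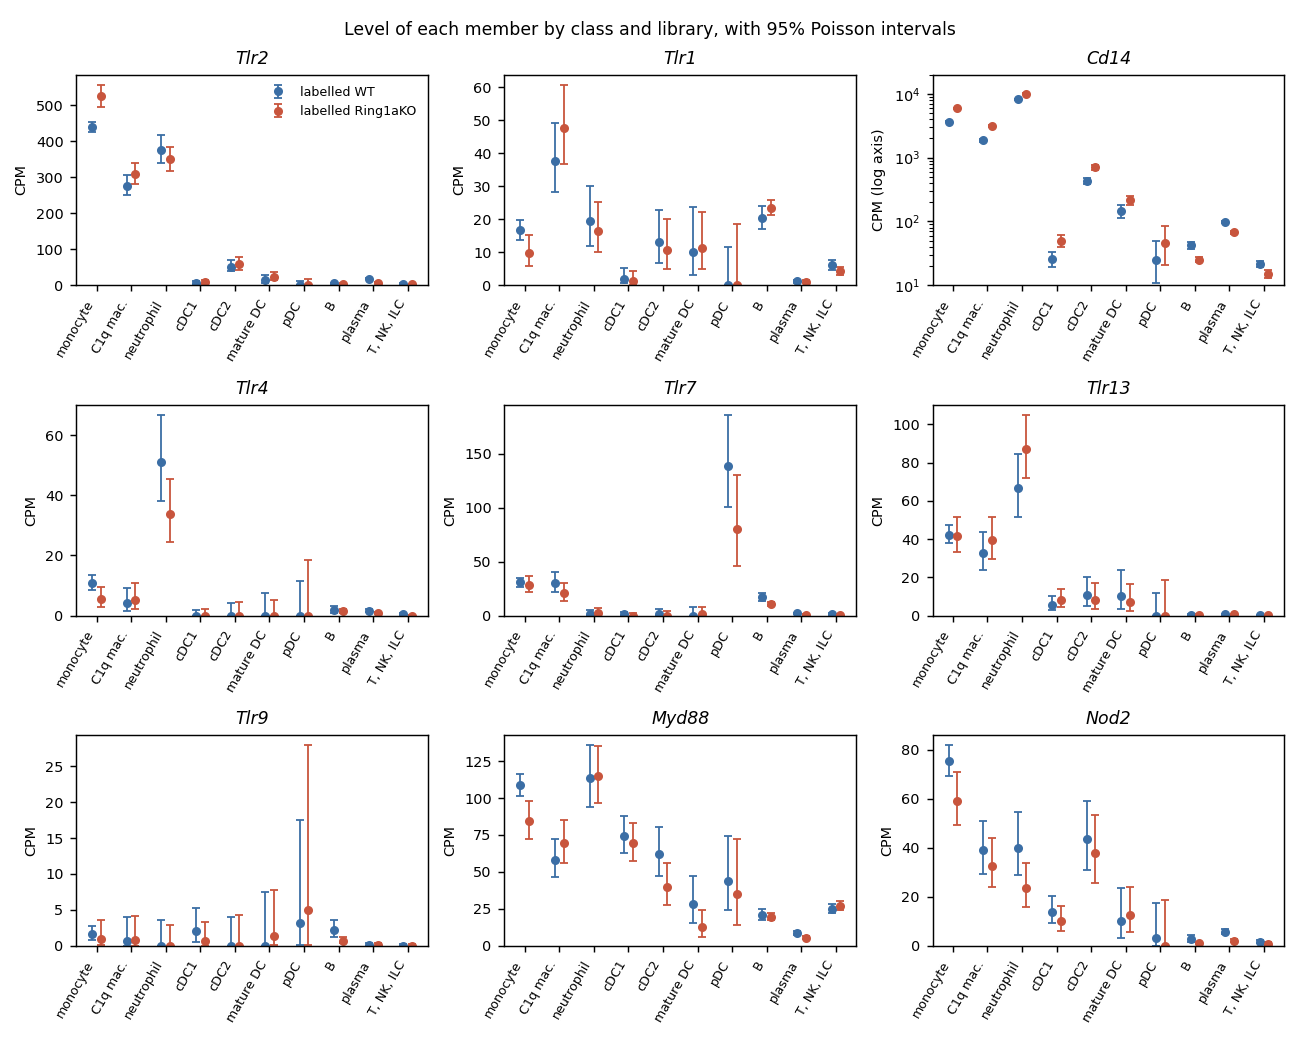
Level of each member in CPM (vertical axis, linear from 0 except for Cd14, which has a log axis) by class, for the library labelled WT in blue and that labelled Ring1aKO in red, with exact 95% Poisson intervals. Tlr2 and Cd14 stood high in monocyte-like, C1q macrophage-like and neutrophil-like cells, Tlr4 in neutrophil-like cells, Tlr7 in pDC-like cells and Tlr1 in C1q macrophage-like cells.

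Cd14, the lipopolysaccharide co-receptor, was highest in neutrophil-like cells, with 8137 CPM (7964 to 8314) labelled WT and 10057 (9884 to 10233) labelled Ring1aKO. Monocyte-like cells had 3646 and 5882 CPM, C1q macrophage-like cells 1856 and 3112 CPM, and cDC2-like cells 428 and 706 CPM. The order of these 4 classes was the same in both libraries, and no neighbours in it overlapped in their intervals. When cells were thinned to 2000 UMIs each, a Cd14 UMI was found in 96.0% and 99.6% of the monocyte-like cells. In T, NK and ILC-like cells, which should lack the gene, these shares were 3.61% and 3.01%. The median depths before thinning were 9609 and 7595 UMIs in monocyte-like and 5576 and 5521 in T, NK and ILC-like cells.

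Tlr4, the receptor CD14 serves, had its highest level in neutrophil-like cells. It had 50.9 CPM (38.0 to 66.7) labelled WT and 33.8 CPM (24.5 to 45.5) labelled Ring1aKO there, and 10.9 and 5.39 CPM in monocyte-like cells. No Tlr4 UMI was found in cDC1-like, cDC2-like, mature DC-like or pDC-like cells of either library. The floor was 1.54 and 1.79 CPM for cDC1-like cells and 6.07 and 4.21 CPM for mature DC-like cells. For pDC-like cells it was 9.46 and 15.1 CPM, near or above the monocyte-like level. Neutrophil-like cells were thus the class with the highest level of both Cd14 and Tlr4 in both libraries. Of all Tlr4 UMIs they held 22.5% and 36.4%, and monocyte-like cells 35.1% and 9.32%.

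The endosomal receptors divided among the classes. Tlr7 was highest in pDC-like cells, which are known for type I interferon made in answer to viral RNA, with 139 CPM (101 to 186) labelled WT and 80.4 CPM (45.9 to 130) labelled Ring1aKO, from 44 and 16 UMIs. Monocyte-like cells had 30.7 and 28.4 CPM, and C1q macrophage-like cells 29.9 and 20.8 CPM, with overlapping intervals. Neutrophil-like cells, in contrast, had 1 and 3 Tlr7 UMIs, at or under the floor of 3. Tlr13, the sensor of bacterial ribosomal RNA, was highest in those same neutrophil-like cells, with 66.5 CPM (51.7 to 84.4) and 87.3 CPM (71.8 to 105). Monocyte-like cells had 42.4 and 41.7 CPM of it, and C1q macrophage-like cells 32.7 and 39.5 CPM. No Tlr13 UMI was found in pDC-like cells, where the floor was 9.46 and 15.1 CPM. Tlr9, the sensor of CpG DNA, had only 63 UMIs over all kept barcodes, of which 14 and 13 were in B-like cells and 1 and 1 in pDC-like cells. At this depth its levels could not be ordered in full, since all neighbouring classes overlapped in their intervals. B-like cells (1.18 to 3.62 and 0.377 to 1.21 CPM) did lie above plasma-like cells (0.011 to 0.328 and 0.010 to 0.312 CPM) in both libraries.

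Myd88, the adaptor shared by most of these receptors, was the broadest member. It had 109 and 84.3 CPM in monocyte-like cells, 114 and 115 CPM in neutrophil-like cells, 74.4 and 69.3 CPM in cDC1-like cells and 58.4 and 69.2 CPM in C1q macrophage-like cells. Lymphocytes were lower, with 21.0 and 19.7 CPM in B-like cells and 25.1 and 26.9 CPM in T, NK and ILC-like cells, where free RNA accounted for 0.906 and 0.96 CPM. Nod2 was highest in monocyte-like cells, with 75.5 CPM (69.4 to 82.0) and 59.3 CPM (49.2 to 70.9). The cDC2-like cells came next with 43.6 and 37.7 CPM, and labelled Ring1aKO their interval (25.8 to 53.2) overlapped that of monocyte-like cells. They also overlapped with neutrophil-like cells at 40.1 and 23.6 CPM and C1q macrophage-like cells at 39.1 and 32.8 CPM. B-like cells had 2.62 and 1.04 CPM of Nod2.

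The genes whose levels over the 9 classes of both libraries (18 points) were most like those of a member were ranked by Pearson's r of log2(CPM + 1), among 10016 genes. Both libraries share the classes, so r is a description. Tlr2 was closest to Igsf6 (r = 0.98) and Itgam (0.97), the latter the integrin alpha-M chain of myeloid cells. Cd14 was closest to Smox (0.97), Cxcl2 (0.96) and Ccrl2 (0.96), Tlr4 to Trem3 (0.96), Tlr13 to Dusp1 (0.97) and Nod2 to Itga5 (0.97) and Il1b (0.96). The first matches of Myd88, Tlr1 and Tlr7 were Pstpip1 (0.94), Ppp1r15a (0.93) and B3gnt8 (0.89). Among the members, Tlr2 was most like Cd14 (r = 0.95) and Tlr13 (0.92), and r of Tlr2 with Tlr1 was 0.72 and with Tlr7 -0.11.

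The second question was whether the members differed between the libraries within a class. A pair of 1 member and 1 class was compared where it held at least 30 UMIs over both libraries, which 45 of 81 pairs did, and called where it differed by at least 1.5-fold. Of these, 4 pairs were higher in the library labelled Ring1aKO, all of Cd14, and 13 were lower. Over all genes and classes, 6.08% of 60196 pairs were called higher and 20.7% lower. In 6 of the 9 classes the median log2 ratio of all genes was below 0 by over 0.1, from -0.12 in neutrophil-like to -0.33 in plasma-like cells. With each median set to 0, 5 pairs were higher and 7 lower.

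Cd14 was higher in the library labelled Ring1aKO in monocyte-like cells by 1.61-fold, a log2 ratio of 0.69 (0.66 to 0.72). In C1q macrophage-like cells the ratio was 0.75 (0.67 to 0.82), in cDC2-like cells 0.72 (0.54 to 0.91) and in cDC1-like cells 0.94 (0.43 to 1.49), from 25.7 and 49.6 CPM. It was 0.55 in mature DC-like cells and 0.31 (0.27 to 0.35) in neutrophil-like cells, below 1.5-fold. The medians of all genes were -0.18, -0.03, -0.18, -0.19, -0.05 and -0.12 in the same order. By summed UMIs the level of Cd14 was thus higher in each of these 6 classes, but with each cell given the same weight the ratio turned to -0.65 in mature DC-like cells and was 0.54 in cDC1-like cells, no longer called. In cDC1-like cells, the free RNA estimated from plasma-cell transcripts accounted for 8.03 and 6.55 CPM of Cd14.

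The markers of the classes moved too. In monocyte-like cells the 8 monocyte markers summed to 10694 CPM labelled WT and 14320 labelled Ring1aKO, and the 8 neutrophil markers to 342 and 650 CPM with none at 0, against 154551 and 209039 CPM in neutrophil-like cells. The cDC1 markers were at 514 and 213 CPM in the monocyte-like cells, with 1 and 4 of 8 at 0. In C1q macrophage-like cells the neutrophil markers summed to 426 and 575 CPM, and 1 of 8 was at 0 in both. The cDC1 markers were at 466 and 241 CPM there, with 1 and 4 of 8 at 0. Markers of several other classes differed in cDC2-like cells. The neutrophil markers summed to 649 and 1155 CPM there, with 2 of 8 at 0, the mature DC markers to 385 and 1002 CPM, the C1q macrophage markers to 58.8 and 165 CPM and the monocyte markers to 613 and 265 CPM. In cDC1-like cells, with the largest Cd14 ratio, the neutrophil markers were at 99.1 and 179 CPM with 1 of 8 at 0, the monocyte markers at 115 and 81.2 CPM and the C1q macrophage markers at 22.6 and 8.36 CPM. Their part in the Cd14 ratios was not tested.

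The monocyte-like cells were not made up alike. An unsupervised clustering without the members put 487 of the 816 cells labelled WT and 258 of the 270 labelled Ring1aKO in 1 cluster, led by Cxcl3, Cxcl1 and Il10. Another cluster, led by the interferon-gamma-induced genes Cxcl9, Gbp2 and Cxcl10, held 295 labelled WT and 4 labelled Ring1aKO. Within the cluster both libraries shared, Cd14 was at 3974 and 5919 CPM, a log2 ratio of 0.57 (0.54 to 0.61), just under 1.5-fold. The Cd14 difference was thus present, though smaller, among the cells found in both libraries. Tlr2 had 479 and 527 CPM in that cluster, a ratio of 0.14 (0.03 to 0.25), against 0.26 (0.16 to 0.36) over all monocyte-like cells.

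Along the range from C1q macrophage-like to monocyte-like cells, Cd14 rose with the monocyte score in both libraries. In the 4 bins of that score it was at 1218, 2434, 3273 and 3731 CPM labelled WT and at 1925, 4209, 5081 and 6063 CPM labelled Ring1aKO. The ratio was between 0.63 and 0.79 in each bin. Cells near the limit between both classes were 63 of 1053 and 49 of 532. Tlr2 was instead low in the most macrophage-like bin, with 114 and 195 CPM, and at 424 and 414 CPM in the next. Tlr1 had 34.5 and 41.9 CPM in the most macrophage-like bin and 13.5 CPM labelled WT in the most monocyte-like one.

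**Figure D2:**
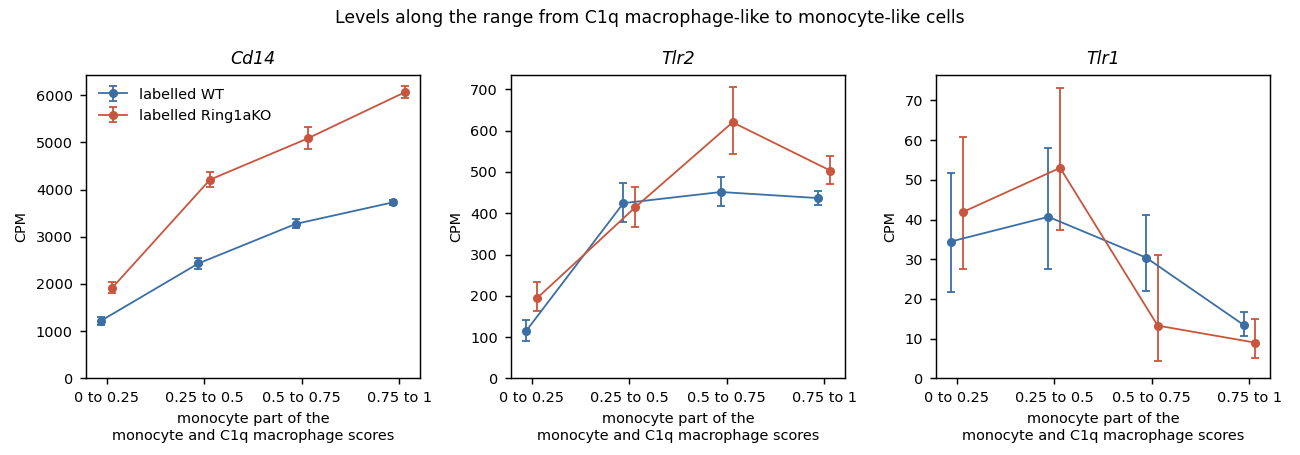
Levels in CPM (vertical axes, from 0) of Cd14, Tlr2 and Tlr1 in 4 bins of the monocyte part of the summed monocyte and C1q macrophage scores (horizontal axis), with 95% Poisson intervals and the libraries in blue (WT) and red (Ring1aKO). Cd14 labelled Ring1aKO lay above WT in each bin, with ratios of 0.63 to 0.79 on the log2 scale, and Tlr1 fell toward the monocyte-like end.

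Detection of Cd14 and Tlr2 in the same cell was counted at 2000 UMIs. UMIs of both were in 51.6% and 59.6% of the monocyte-like cells, and Tlr2 alone in 0.904% and 0%. Of the neutrophil-like cells, 46.5% and 37.2% had both. Neither was found in 3.10% and 0.392% of the monocyte-like and in 20.5% and 13.9% of the C1q macrophage-like cells. A missing UMI at this depth is not absence of the transcript.

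The lower pairs in phagocytes were few and rested on small counts. Tlr4 in monocyte-like cells was 1.87-fold lower in the library labelled Ring1aKO, with 81 and 11 UMIs and a log2 ratio of -0.90 (-2.07 to -0.10). It was -1.17 within the shared cluster. In neutrophil-like cells, where Tlr4 was highest, it was -0.58 (-1.21 to 0.02), just under 1.5-fold. Tlr1 in monocyte-like cells was 1.63-fold lower (-0.70, -1.52 to -0.07), and -0.27 (-1.18 to 0.49) within the shared cluster. Nod2 in neutrophil-like cells was 1.69-fold lower from 41 and 30 UMIs, and -0.34 (-0.64 to -0.06) in monocyte-like cells. Within the shared monocyte cluster Nod2 was at 63.3 and 59.2 CPM, a ratio of -0.09 (-0.42 to 0.22). Without the 5% of neutrophil-like barcodes with the most UMIs the Nod2 ratio was -0.58, no longer called. Of the members compared, monocyte-like cells had 1 of 8 called higher and 2 lower, where 6.81% and 20.4% of all genes were. Neutrophil-like cells had 0 and 1 of 7, against 9.52% and 20.2%, and C1q macrophage-like cells 1 and 0 of 7, against 9.19% and 11.5%. Tlr2, Tlr7, Tlr13 and Myd88 were within 1.5-fold in all 3 of these classes where they were compared. Tlr7 in C1q macrophage-like cells, at -0.50, passed 1.5-fold with each cell weighted alike (-0.75) and without the 5% of barcodes with the most UMIs (-0.77), and Tlr13 in neutrophil-like cells, at 0.38, reached 0.59 with each cell weighted alike. Some ratios passed it in single bins of the monocyte score, counted from the macrophage-like end. Tlr2 had 0.77 (0.36 to 1.21) in bin 1 and Tlr7 -0.70 (-1.85 to 0.30) in bin 2. Tlr13 had 0.76 (-0.08 to 1.69) in bin 2 and 1.16 (0.35 to 1.9) in bin 3.

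Among dendritic cells few pairs could be compared. Cd14 was the 1 member of 3 called in cDC1-like cells, where 5.13% of all genes were higher and 22.6% lower. In cDC2-like cells Cd14 was higher and Myd88 lower, at 62.1 and 40.1 CPM, a log2 ratio of -0.61 (-1.29 to 0.01), against 6.46% and 21.6% of all genes. Without the 5% of cDC2-like barcodes with the most UMIs, the Cd14 ratio was 0.46. Only Cd14 could be compared in mature DC-like cells, where 11.2% of all genes were higher and 15.9% lower. Tlr7 was lower in pDC-like cells by 1.66-fold (-0.73, -1.71 to 0.07), a class of 30 and 20 cells where 11.3% of genes were higher and 16.3% lower.

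In B-like cells Tlr7 was 1.62-fold lower in the library labelled Ring1aKO, with 110 UMIs in 1211 cells and 193 UMIs in 3661 cells. The levels were 17.0 CPM (13.9 to 20.4) and 10.5 CPM (9.09 to 12.1), whose intervals did not overlap, and the log2 ratio was -0.69 (-1.03 to -0.34). At 2000 UMIs, 43 of 1195 (3.60%) and 59 of 3573 (1.65%) B-like cells had a Tlr7 UMI, against 0.109% and 0.109% of T, NK and ILC-like cells. Relative to the median of all genes in the class, the ratio was -0.49, below 1.5-fold. Tlr1 (0.20, -0.08 to 0.50) and Myd88 (-0.09, -0.38 to 0.21) differed by less in the same cells. In all, 3 of 7 members were lower and 0 higher, where 20% and 2.89% of all genes were.

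The others called lower in B-like cells were Cd14 and Nod2. Cd14 was at 42.2 and 25.3 CPM, of which free RNA accounted for 21.8 and 15.4 CPM. The 5% of B-like barcodes with the most UMIs (61 and 184) held 168 of the 274 Cd14 UMIs labelled WT and 161 of the 464 labelled Ring1aKO. Without them Cd14 was at 19.9 CPM (16.3 to 24.1) and 19.3 CPM (17.2 to 21.6), so the difference was not present in the other B-like cells. Nod2 had 17 and 19 UMIs, or 2.62 and 1.04 CPM, of which free RNA accounted for 0.609 and 0.141 CPM. T, NK and ILC-like cells had 1.59 and 0.872 CPM of it.

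Plasma-like cells had 5 of 7 members lower, where 28.2% of all genes were lower and 2.77% higher. Tlr2 was at 18.3 and 6.90 CPM there, a log2 ratio of -1.40 (-1.68 to -1.14), and Nod2 at 5.59 and 2.11 CPM (-1.38, -1.91 to -0.91). Tlr7, Tlr4 and Myd88 had ratios of -1.17, -0.85 and -0.62. The median of all genes was -0.33 in this class. Over alternative gates, filters and scalings, Tlr2 and Nod2 rose to at most -0.64 and Tlr7 to -0.84. Tlr4 rose to -0.52 and Myd88 to -0.22, where they were no longer called. Barcodes with fewer than 100 UMIs, which hold free RNA, moved the same way for Tlr2, with 101 and 43.8 CPM (-1.20, -1.38 to -1.03), and for Nod2, with 21.5 and 4.43 CPM (-2.25, -2.81 to -1.78). Tlr4 had a ratio of -1.07 (-2.14 to -0.20) in those barcodes. Tlr7 and Myd88 were nearer to 0 in them than in plasma-like cells, at -0.26 (-0.76 to 0.22) and -0.29 (-0.51 to -0.07). The 8 monocyte markers summed to 2796 and 1864 CPM in plasma-like cells. The 8 neutrophil markers were at 92.1 and 178 CPM there, with none of either list at 0. The 8 C1q macrophage markers were at 85.6 and 119 CPM, with 2 at 0 labelled WT. Such a sum can rest on few genes. In pDC-like cells the monocyte markers summed to 2431 and 2526 CPM with 3 and 4 of 8 at 0. Which genes made up the sum in plasma-like cells was not examined. The share of free RNA in these cells could not be estimated, because their own transcripts set it. The part of free RNA and of these markers in the ratios was not tested.

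**Figure D3:**
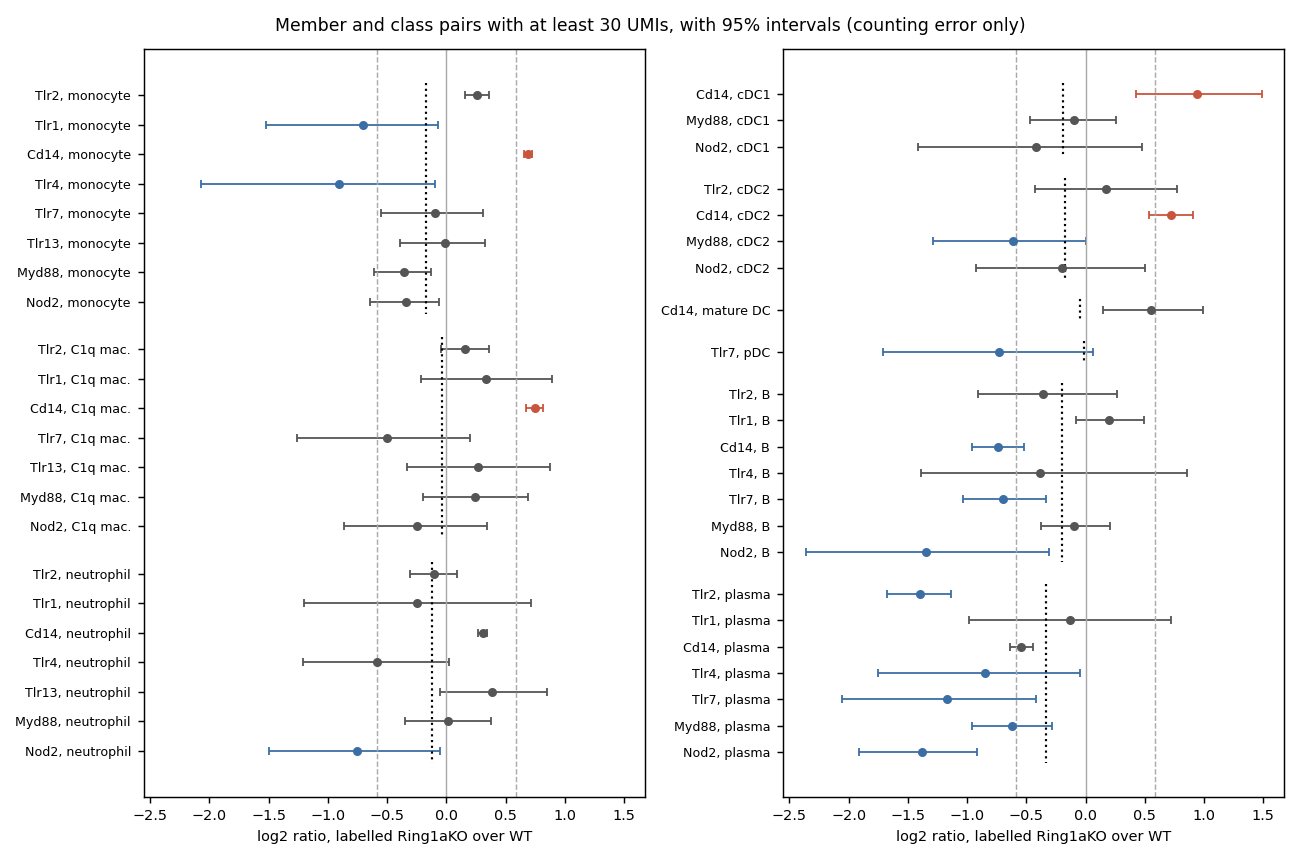
Log2 ratio, Ring1aKO over WT by label (horizontal axis), for the 45 member and class pairs with at least 30 UMIs, with 95% intervals for counting error; red points were higher and blue points lower by at least 1.5-fold (dashed lines), grey ones within, and dotted lines mark the median of all genes of the class. The 4 red points are all Cd14, and 5 of the 13 blue ones are in plasma-like cells.

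Levels summed over all kept barcodes also follow which cells a library held, and the libraries differed in this. Monocyte-like cells made up 13.03% and 3.19% of the kept barcodes and held 12.0% and 2.93% of their UMIs. B-like cells made up 19.3% and 43.2% of the barcodes and held 10.4% and 26.4% of the UMIs. Summed over the library, Tlr2 was at 85.8 and 37.4 CPM, a log2 ratio of -1.20. The class levels of the library labelled Ring1aKO were then weighted by the share of UMIs of each class in that labelled WT. Tlr2 was then at 85.8 CPM, a ratio of 0.00. This sum does not mean equal levels in each class. Tlr2 was higher in monocyte-like cells (439 and 525 CPM) and lower in plasma-like cells (18.3 and 6.90 CPM). Mixed and unplaced barcodes entered the weighting as groups of their own. With the same weights Tlr13 went from -0.84 to -0.01, while others stayed lower. Nod2 went from -1.61 to -0.62, Tlr7 from -0.76 to -0.45 and Myd88 from -0.57 to -0.21. Cd14 changed sign, from -0.57 (753 and 508 CPM) to 0.46. Tlr1 did so the other way, from 0.24 to -0.15. Tlr4 went from -1.13 to -0.85, and Tlr9, from few UMIs, moved little (-0.77 and -0.72). The library-wide share of Cd14 UMIs from monocyte-like cells was 58.1% labelled WT and 34.0% labelled Ring1aKO, and from neutrophil-like cells 17.8% and 36.2%.

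**Figure D4:**
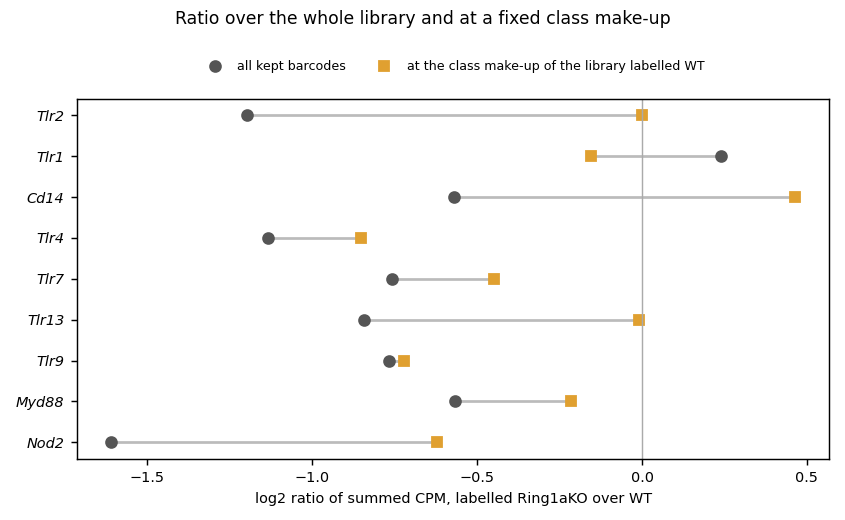
Log2 ratio of the summed level of each member, labelled Ring1aKO over WT (horizontal axis), over all kept barcodes (grey circles) and with the class levels weighted by the class make-up, as shares of UMIs, of the library labelled WT (yellow squares). Mixed and unplaced barcodes were weighted as groups of their own. Tlr2 moved from -1.20 to 0.00 and Cd14 from -0.57 to 0.46.

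The other genes of microbial sensing were taken from 9 lists of 97 genes in all. Among the other Toll-like receptors, Tlr8 was lower in monocyte-like cells, with 10.2 CPM labelled WT and 1.96 CPM labelled Ring1aKO, and Tlr6, the other partner of TLR2, was higher, with 11.4 and 21.6 CPM. In cDC1-like cells the double-stranded RNA sensor Tlr3 had 105 and 47.8 CPM and Tlr12, a profilin sensor, 73.9 and 34.0 CPM. Of 87 listed genes compared in monocyte-like cells 14 were higher and 21 lower, and of 61 in neutrophil-like cells 5 and 19. The shares over all genes were 6.81% higher and 20.4% lower in monocyte-like and 9.52% and 20.2% in neutrophil-like cells.

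The target genes of these receptors held 7 of the 14 higher calls in monocyte-like cells, where 13 of them were compared and 2 were lower, with a median log2 ratio of 0.70 against -0.18 for all genes. Cxcl1, a neutrophil attractant, was at 361 and 1423 CPM, Cxcl3 at 343 and 1035 CPM, and Il10, an anti-inflammatory cytokine, at 95.1 and 394 CPM. Nos2, the inducible nitric oxide synthase, went the other way, with 39.3 and 11.8 CPM. Within the cluster both libraries shared, 8 of 12 targets were higher and 1 lower, where 6.01% and 18.1% of all genes were. Cxcl3, Cxcl1 and Il10 were also leading genes of that cluster. The lists were chosen with earlier results of these data known, so these counts are a description. In cDC1-like cells 4 of 7 targets were higher and 1 lower, against 5.13% and 22.6% of all genes, and Cxcl2 was at 38.0 and 331 CPM and Tnf at 14.4 and 51.3 CPM. In neutrophil-like cells the targets went both ways, with 3 of 11 higher and 2 lower and a median of 0.05 against -0.12 for all genes. Il1b had 23979 and 14250 CPM there, and Ptgs2, the inducible cyclooxygenase, 4091 and 1960 CPM. The higher ones included Il10 (5.87 and 19.7 CPM, from 6 and 25 UMIs) and Nos2 (24.5 and 52.7 CPM).

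The NOD, inflammasome and nucleic acid sensors differed by class. All 8 genes compared in neutrophil-like cells were lower, with a median log2 ratio of -1.18, where 20.2% of all genes were. In monocyte-like cells 6 of 15 were lower (20.4% of all genes), in C1q macrophage-like cells 7 of 14 (11.5%), in B-like cells 8 of 14 (20%), in plasma-like cells 8 of 14 (28.2%) and in cDC1-like cells 4 of 9 (22.6%). The other dendritic classes went less this way, with 1 higher and 1 lower of 8 in cDC2-like cells, 2 and 2 of 5 in mature DC-like cells and neither of 2 called in pDC-like cells. Zbp1, a sensor of Z-form nucleic acids induced by interferon, was at 219 and 51.0 CPM in monocyte-like, 104 and 16.5 CPM in neutrophil-like and 40.2 and 12.6 CPM in B-like cells. Ddx58 (RIG-I) had 34.9 and 13.2 CPM in monocyte-like cells. In the shared monocyte cluster Zbp1 was at 122 and 50.1 CPM, and 6 of 14 genes of the list were lower. Among inhibitors, Socs1 had 65.2 and 15.2 CPM in monocyte-like cells but 24.3 and 15.0 CPM within the shared cluster. The NF-kappaB inhibitor gene Nfkbia was higher in monocyte-like cells, with 3211 and 5282 CPM. Cyld, a deubiquitinase that restrains NF-kappaB, had 62.4 and 31.4 CPM. The interferon factors Irf7 (115 and 36.3 CPM) and Irf8 (258 and 70.6 CPM) were lower there, so 2 of 9 transcription factors were, a share near the 20.4% of all genes.

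The remaining lists held fewer calls in monocyte-like cells. Of 13 adaptors and kinases compared in monocyte-like cells 2 were lower, Traf3 (73.5 and 39.2 CPM) and Chuk (48.4 and 27.9 CPM), and none higher, a share no larger than the 20.4% lower over all genes. Of 8 receptor partners and chaperones, Ly86 and Cd180, which encode the MD-1 and RP105 pair, were lower and Lbp higher, and none of these was called within the shared cluster. Unc93b1, the chaperone of the endosomal receptors, was higher in pDC-like cells, with 568 and 964 CPM. Of 11 genes of C-type lectins and fungal signalling in monocyte-like cells, Clec4d was higher (300 and 613 CPM) and Clec2d and Malt1 lower, though neither of the latter was called within the shared cluster, with log2 ratios of -0.33 and -0.49. The list of peptidoglycan and lipopolysaccharide handling had Acod1, which makes itaconate, lower in neutrophil-like (6196 and 3399 CPM) and monocyte-like cells (632 and 330 CPM), but at 420 and 328 CPM within the shared cluster, no longer called.

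**Figure D5:**
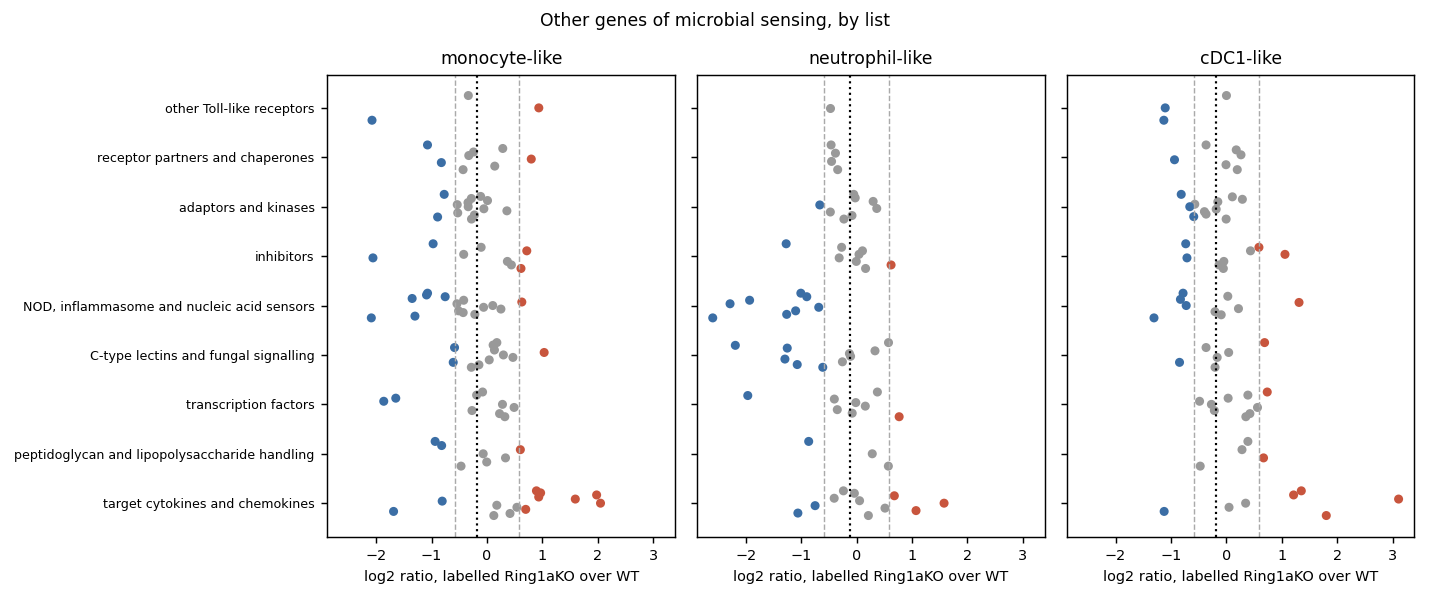
Log2 ratio, Ring1aKO over WT by label (horizontal axis), of each listed gene with at least 30 UMIs, by list, in monocyte-like, neutrophil-like and cDC1-like cells; red points were higher and blue points lower by at least 1.5-fold (dashed lines), and dotted lines mark the median of all genes of the class. In neutrophil-like cells all 8 NOD, inflammasome and nucleic acid sensor genes lie left of the lower line, and in monocyte-like cells 7 of 13 target genes lie right of the upper one.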

How the data were processed

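The libraries were made with the 10x Genomics 3' version 3 kit. The authors' deposited matrices hold UMI counts of every gene in every barcode, with neither cells called nor values normalized. Their header names Cell Ranger 4, whereas the submitters' processing notes name Cell Ranger 6.0.2 with mm39 and Seurat. The study's methods name a Cell Ranger version older than either, with mm10. No coordinate was therefore taken from the counts. Gene positions and promoters are those of GRCm38.

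The members and the gene lists were chosen with earlier results of these data known. Each barcode was scored for marker lists of 7 to 11 genes (5 for stromal types) and placed in the class with the best score. It needed at least 3 markers detected, a score of at least 0.2, and no second class above 0.67 of that score. The monocyte and C1q macrophage lists were not held against each other in this, so cells between both stayed in the class with the higher score. Doublets were not called otherwise, and 286 and 346 mixed barcodes were left out of the classes. UMIs were summed per class and library and divided by the class total (CPM). Intervals are Poisson for levels, Clopper-Pearson for shares and conditional binomial for ratios, with 1 UMI added in ratios. No edgeR or other count model was fitted with 1 library per group. Named genes are the members, listed genes with at least 30 UMIs and 1.5-fold difference (at most 4 per list and class, by fold), and the genes most correlated with each member among those with at least 200 UMIs. Graph clusters were made with scanpy 1.11.5 and all sums with pandas 2.3.3, scipy 1.17.1 and numpy 2.4.6 under Python 3.11.15. Ratios and intervals were checked on simulated sums with known folds. These sums held Poisson counting error alone, which the intervals assume, so the check does not bear on spread between cells or mice.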

Additional observations from a re-analysis of the deposited data

Results flagged for a closer look

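Cd14 moved in opposite directions in the classes compared, with a log2 ratio (Ring1aKO over WT, by label) of 0.69 in monocyte-like cells and -0.74 in B-like cells. The difference between the classes was not tested, since each rests on 1 library per genotype. In B-like cells the levels were 19.9 and 19.3 CPM once the 5% of barcodes with the most UMIs were left out.

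Barcodes with fewer than 100 UMIs, which enter no class, held 7527 (WT) and 4269 (Ring1aKO) UMIs of Cd14, or 771 and 485 CPM, far above the floor of 3 counts.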

How the results depend on the processing

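No paired analysis was possible because each genotype has 1 library and no test was made. Over 12 alternatives to the gate, the filters and the scaling, and 1 chosen after the data were seen, 499 of 530 ratios of single pairs stayed within the main 95% interval, 31 left it, and no called ratio changed sign. The 4 pairs called higher became 0 with classes taken from graph clusters, where the cDC1-like and cDC2-like cells could not be told apart and Cd14 had ratios of 0.58 and 0.43 in monocyte-like and C1q macrophage-like cells. They became 9 with no minimum of UMIs and 0 at a fold of 2. The 13 pairs called lower became 7 with the median log2 ratio of all genes set to 0, 8 with the cell-free profile subtracted, which leaves out plasma-like cells because their own transcripts set the share, 6 with at least 100 UMIs per pair and 4 at a fold of 2. The fold change of Cd14 in monocyte-like cells ranged from 0.57 to 0.87 on the log2 scale over all alternatives. With each cell weighted alike, 51 of 74 levels stayed within their intervals. Shares of cells with a UMI follow depth, and 46 of 56 moved when thinned to 1000 UMIs. Depth limits the ratios of Tlr9, which reached 30 UMIs in no class. Tlr4 reached them only in monocyte-like, neutrophil-like, B-like and plasma-like cells.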
